A study of Mus musculus with 30 samples.

Results

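The matrix genes described here encode collagens, laminin chains, fibulins, thrombospondins, small and large matrix proteoglycans and a group of adhesive and matricellular glycoproteins. They were chosen by symbol alone: every gene of the deposited table named as a collagen alpha chain, a laminin alpha, beta or gamma chain, a fibulin or a thrombospondin, plus Dcn, Lum, Bgn, Fn1, Sparc, Postn, Fbn1, Nid1, Nid2, Tnc and Hspg2. The rule gave 60 of the 13788 genes in the table. They are 10 fibrillar collagen chains, 6 type IV and 4 type VI collagen chains, 13 chains of other collagens, 5 laminin alpha chains, 4 laminin beta and gamma chains, 4 fibulins, 3 thrombospondins, 4 proteoglycans and 7 other glycoproteins. All 60 reached a value of 10 in at least 3 libraries and were tested. Other genes that the rule could name were not analysed here.

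Collagens are secreted as triple helices of alpha chains. The fibrillar types form the tensile fibrils of connective tissue, type IV forms the sheet of basement membranes, and laminins, heterotrimers of an alpha, a beta and a gamma chain, form a second sheet that nidogens and the proteoglycan perlecan link to it. In the brain such membranes surround blood vessels and lie under the pia, while the tissue between cells holds little fibrillar collagen. Matricellular proteins such as SPARC, tenascin-C, periostin and the thrombospondins act mainly as signals that modify adhesion and growth factor activity, and cells read the matrix through integrins, discoidin domain receptors and syndecans.

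RNA was sequenced from primary microglia, the resident macrophages of the brain, grown from mouse brains for 5 to 8 days and harvested by shaking them off. The 30 libraries form 10 groups of 3: cultures labelled PD-1 KO at 0 h, at 2 h and 8 h without amyloid-beta, and at 2 h and 8 h in conditioned medium containing amyloid-beta, and cultures labelled WT at the same times and with the same media. Pdcd1 encodes PD-1, a receptor that restrains immune cells. Not stated in the labels are the mouse strain, age and sex, the allele, the medium of untreated cultures and whether a group's 3 libraries stem from separate animals. The p-values thus cover the spread between these libraries, which may be technical. Library numbers in the labels form 2 runs, 1 for 0 h and 2 h and 1 for 8 h, so a difference between 8 h and 0 h cannot be told apart from one between the runs, while each comparison of PD-1 KO with WT at 1 condition lies within a run.

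The deposited values are gene counts scaled per library and floored at 1, here called the signal. The reads behind them, recovered from the step between values, ran from 4227019 to 48509985 per library (median 9603082). Pdcd1 had 6.02 to 25.3 in all 15 PD-1 KO-labelled libraries and lay at the floor in all 15 WT-labelled libraries, which goes against the label of the targeted gene. Every direction below is that of the libraries as labelled. Markers of other cell types were present in both labels and not at equal levels. The summed signal of 10 astrocyte markers ran from 11515 to 28826 in PD-1 KO-labelled libraries and from 1298 to 3923 in WT-labelled ones, and that of 8 ependymal and choroid plexus markers from 1578 to 6925 and from 421 to 2039. The 6 markers of fibroblasts and meninges that could be used summed to 205 to 657 in PD-1 KO-labelled libraries and to 160.3 to 1550.3 in WT-labelled ones. The largest part of this fibroblast sum was Pdgfra, with a median of 253 in PD-1 KO-labelled and 567 in WT-labelled libraries. Igf2 was also lower under the PD-1 KO label, with medians of 50.4 and 286. Islr (medians 86.0 and 11.4), Foxc1 (13.7 and 2.78) and Aldh1a2 (11.8 and 1.47) went the other way. Markers such as Twist1, Twist2, Dpt and Mgp were not analysed here. The 10 microglial markers summed to 53455 to 88949.5 in PD-1 KO-labelled libraries and to 79718 to 127519 in WT-labelled ones. Fewer cells of a type and less RNA per cell cannot be told apart in such libraries, and the part of these other cell types in the results on matrix genes was not tested.

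In both labels, a few basement membrane and matricellular genes held most of the matrix signal. Levels of different genes are compared as mean signal per kb of exon (length of all annotated exons merged, GRCm38 annotation). Sparc, a collagen-binding matricellular protein, led in both, with 1455 per kb in PD-1 KO-labelled libraries and 349 per kb in WT-labelled ones, which is 46.2% and 28.6% of the sum over the 60 genes. Behind it in PD-1 KO-labelled libraries came fibronectin (Fn1) at 195, the laminin gamma-1 chain (Lamc1) at 177, tenascin-C (Tnc) at 158, laminin beta-2 (Lamb2) at 121 and Col18a1 at 119 per kb. In WT-labelled libraries the order was Sparc, Lamc1 (144), Fn1 (96.8), Thbs1 (94.3), Col18a1 (69.3) and Tnc (52.9). The interstitial fibrillar chains stood low: Col1a1 had 6.39 per kb in PD-1 KO-labelled libraries and 4.05 per kb in WT-labelled ones, Col1a2 4.77 per kb in PD-1 KO-labelled libraries and 7.68 per kb in WT-labelled ones and Col3a1 11.9 per kb in PD-1 KO-labelled libraries and 2.29 per kb in WT-labelled ones. The 10 highest genes made up 80.9% of the summed level in PD-1 KO-labelled libraries and 75.8% in WT-labelled libraries. The largest rank difference among the leading genes was that of Col4a6, the ninth by level per kb in PD-1 KO-labelled libraries and at place 26 in WT-labelled libraries. In PD-1 KO-labelled libraries the lowest Sparc level per kb lay above the highest of every other matrix gene, whereas in WT-labelled libraries single libraries of other genes, such as Thbs1, reached into its range.

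**Figure D1:**
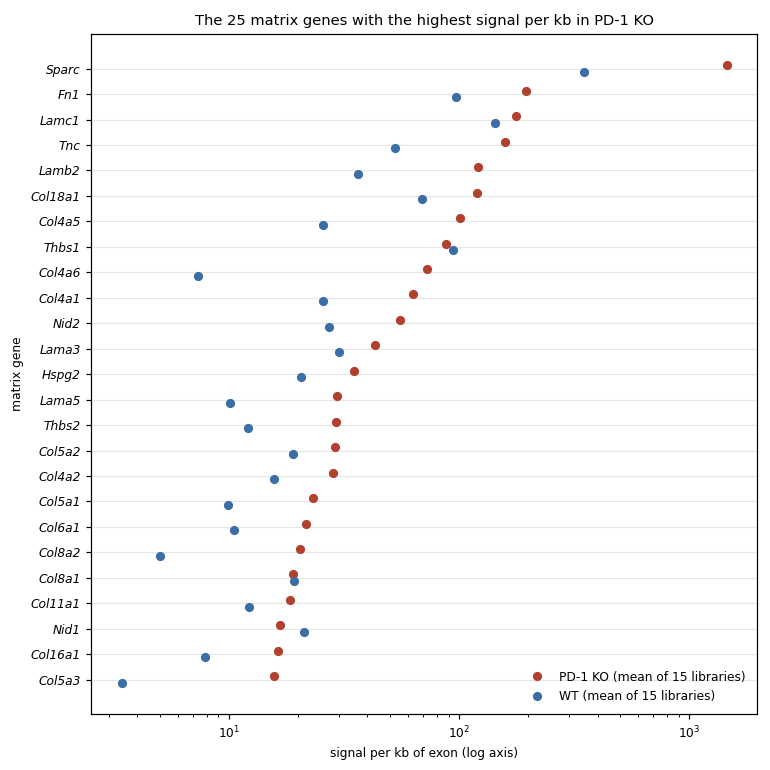
Mean signal per kb of exon (log axis) of the 25 matrix genes with the highest level in libraries labelled PD-1 KO, with PD-1 KO (red, mean of 15 libraries) drawn above WT (blue, mean of 15 libraries) in each row. Sparc lies far to the right in both labels, and Col4a6 shows the widest gap between the labels among the 25, with 72.4 in PD-1 KO and 7.35 in WT.

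Most matrix genes stood higher under the PD-1 KO label than under the WT label. Averaged over the 5 conditions, 45 of the 60 rose and 4 fell at an adjusted p under 0.05 (limma moderated test, Benjamini-Hochberg over all genes), where 30.3% of all tested genes rose and 29.1% fell. The median log2 change was 1.05 over the matrix genes and -0.02 over all genes. The 4 that fell were Postn, Col4a3, Col1a2 and Fbln5, and the 11 that did not pass the test were Col1a1, Col2a1, Col4a4, Col8a1, Col14a1, Col20a1, Lama4, Lamb1, Fbln2, Nid1 and Thbs1. All log2 changes are differences of mean log2(signal + 1) with their standard error, a scale that understates the change of genes with low signal. For 11 genes all 15 PD-1 KO-labelled libraries lay above all 15 WT-labelled libraries, where 7.64% of all genes did: Col4a5, Col4a6, Col6a5, Col23a1, Col26a1, Lamb2, Fbln7, Thbs3, Dcn, Nid2 and Sparc. For none of the 60 did all 15 lie below, as 1.36% of all genes did. After quantile normalization, which moves the median of all genes to -0.11, the split was 37 higher and 11 lower, where 23.7% and 45.7% of all genes were. With the first replicates of PD-1 KO at 0 h and of PD-1 KO at 2 h with amyloid-beta left out, 50 genes were called in all.

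**Figure D2:**
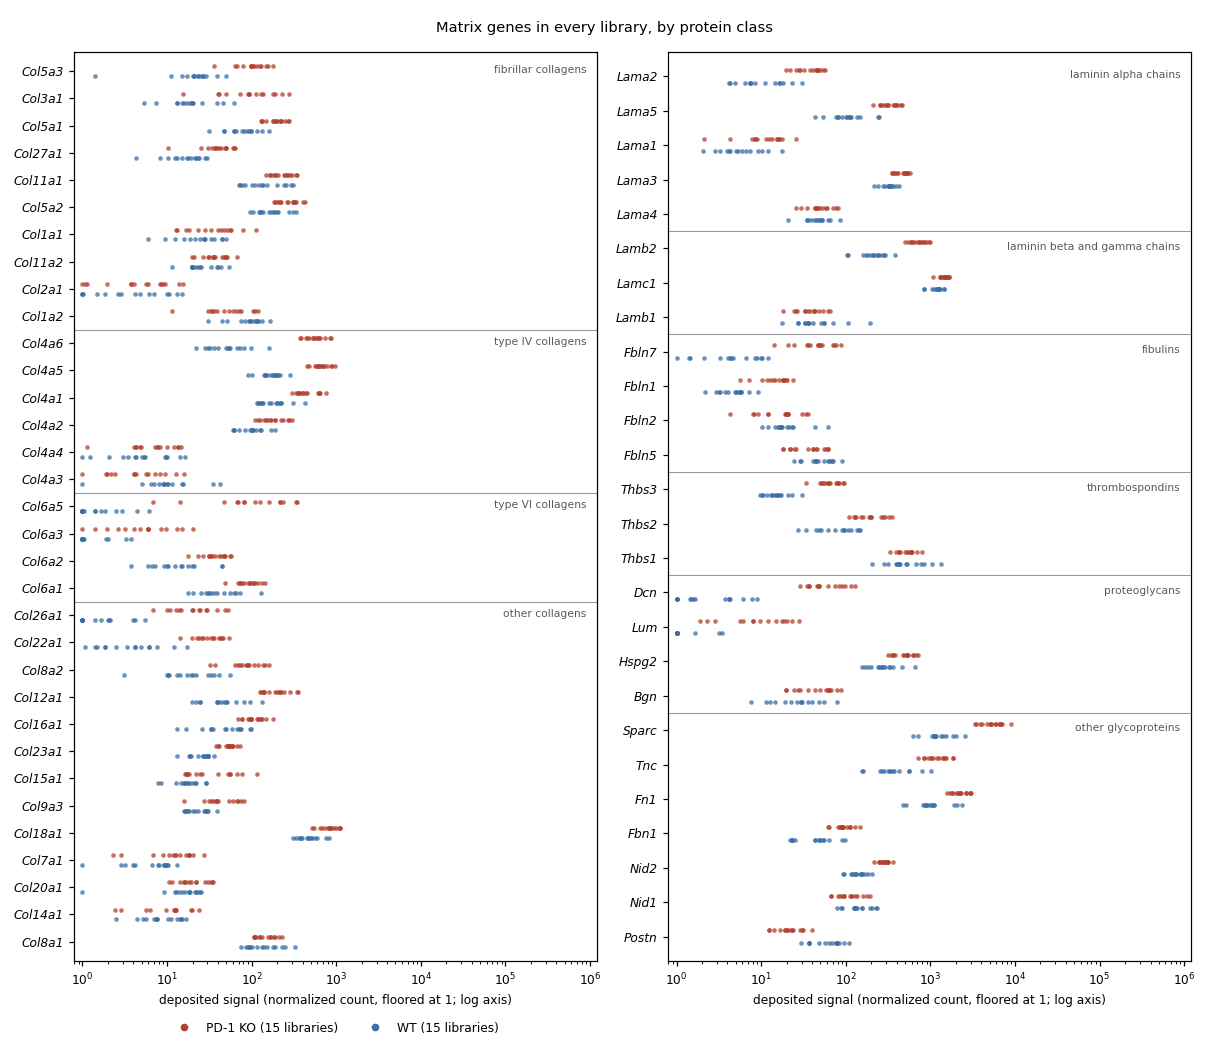
Signal of 59 matrix genes in every library (log axis, floor at 1), by protein class, with the 15 PD-1 KO libraries (red) drawn above the 15 WT libraries (blue) in each row. The labels separate without overlap for 11 genes, such as Col4a6, Dcn and Sparc, and lie over each other for others, such as Thbs1, Nid1 and Lama4, while Postn lies to the left in PD-1 KO.

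The excess was seen in each condition, with fewer calls at 0 h. At 0 h 14 rose and 5 fell (13.8% and 6.88% of all genes), at 2 h 30 and 2 (18.8% and 13.4%), at 2 h with amyloid-beta 41 and 1 (22.2% and 16.7%), at 8 h 33 and 3 (18% and 9.01%) and at 8 h with amyloid-beta 40 and 0 (22% and 11.7%). The medians over the matrix genes were 0.48, 0.95, 1.35, 1.07 and 1.48 in that order; the last is 1.32 with 3 genes that lay at the floor in all WT libraries of that condition set at their lower bound. Decreases were thus fewer than over all genes in each condition but 0 h, where 5 of 60 is near the share of all genes. With quantile normalization the splits were 10 and 8 at 0 h (11.1% and 10.5% of all genes), 26 and 6 at 2 h (15.2% and 20.8%), 32 and 2 at 2 h with amyloid-beta (16.8% and 24.8%), 22 and 5 at 8 h (13.3% and 15.6%), and 31 and 4 at 8 h with amyloid-beta (15.7% and 22.7%). At 0 h the matrix genes were then called in both directions at shares not far above those of all genes. The set of 12 genes that rose in all 5 conditions (9.15% of all genes did) was the same list of 11 plus Col22a1. Without the first PD-1 KO-labelled library at 0 h and the first at 2 h with amyloid-beta, left out together, the 0 h calls of Col22a1, Col23a1, Col26a1, Fbln7, Lama1, Lamb2, Sparc and Thbs3 were lost. A further 12 rose in 4 conditions (5.0% of all genes did), in each case all but 0 h. In at least 1 condition 7 genes fell (26.9% of all genes did), and Lama1, a laminin alpha chain of early basement membranes, both rose, in 3 conditions, and fell, at 8 h.

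**Figure D3:**
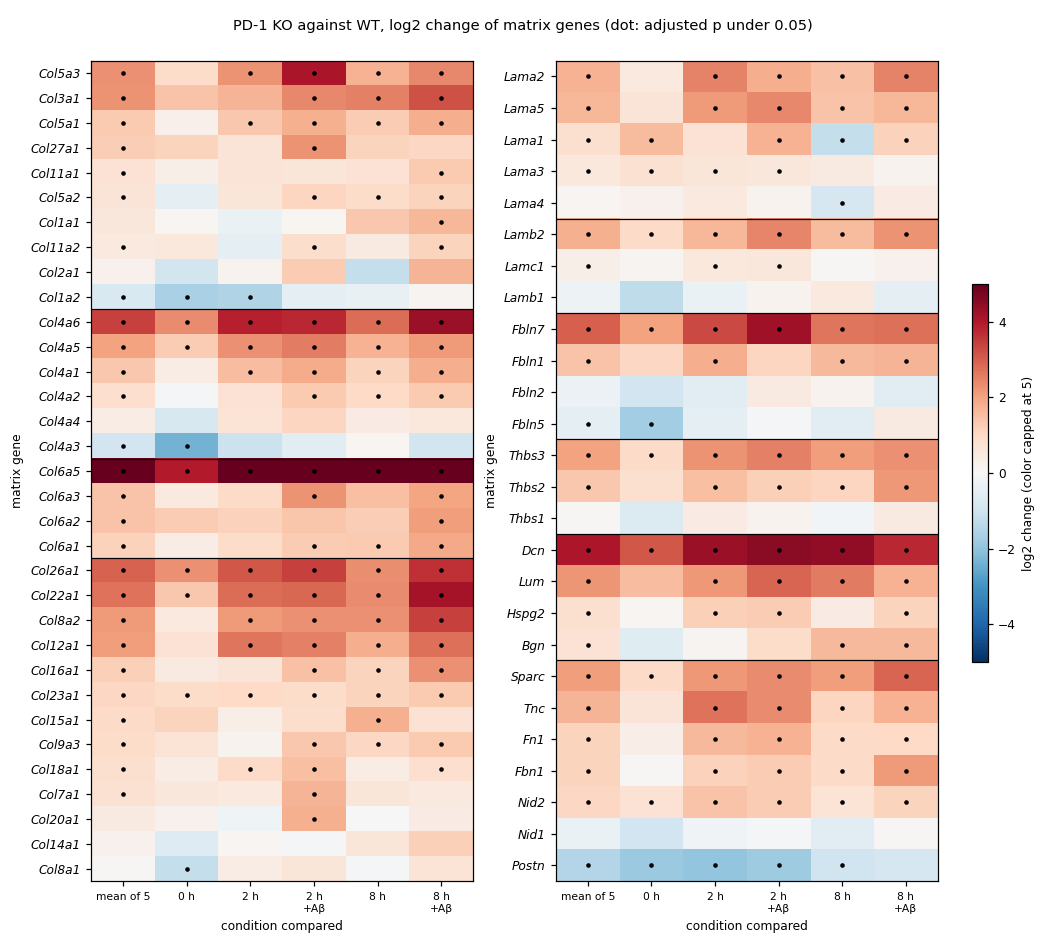
Log2 change of 59 matrix genes (rows, grouped by protein class) in PD-1 KO against WT, as the mean of 5 conditions and in each condition (columns), with the color capped at 5 and a dot where the adjusted p was under 0.05. Rows such as Col4a6, Col6a5, Dcn and Sparc are red with dots in every column, and Postn is blue with dots in all columns but 8 h with amyloid-beta.

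Type IV collagen, the network former of basement membranes, held the matrix gene with the smallest p-value, Col4a6. Its 6 genes lie in head-to-head pairs, Col4a1 with Col4a2 on chromosome 8, Col4a3 with Col4a4 on chromosome 1 and Col4a5 with Col4a6 on the X chromosome, and in this family 4 of 6 rose, 1 fell and 1 was not called. The starts of Col4a6 (GRCm38 chrX:141165403-141474076, minus strand) and Col4a5 (chrX:141475385-141689234, plus strand) lie 1309 bases apart. The 250 bases before each start that RefSeq gives (GRCm38.p6) are shown because this pair rose together in every condition, and those of Col6a5, the gene with the largest change, for comparison. Capitals mark matches to the GC box (GGGCGG) or the CCAAT box (CCAAT) on either strand.
Col4a6 (chrX:141474077-141474326, minus strand): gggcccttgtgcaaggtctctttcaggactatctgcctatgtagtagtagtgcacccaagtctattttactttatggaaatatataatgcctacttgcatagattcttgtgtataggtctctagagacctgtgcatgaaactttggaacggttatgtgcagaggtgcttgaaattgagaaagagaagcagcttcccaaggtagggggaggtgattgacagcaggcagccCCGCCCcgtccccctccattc
Col4a5 (chrX:141475169-141475418, plus strand): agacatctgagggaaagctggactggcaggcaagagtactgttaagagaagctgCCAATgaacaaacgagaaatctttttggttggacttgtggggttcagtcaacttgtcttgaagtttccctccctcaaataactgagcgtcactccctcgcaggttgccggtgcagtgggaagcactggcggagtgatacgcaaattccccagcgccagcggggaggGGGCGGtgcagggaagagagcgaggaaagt
Col6a5 (chr9:105960644-105960893, minus strand): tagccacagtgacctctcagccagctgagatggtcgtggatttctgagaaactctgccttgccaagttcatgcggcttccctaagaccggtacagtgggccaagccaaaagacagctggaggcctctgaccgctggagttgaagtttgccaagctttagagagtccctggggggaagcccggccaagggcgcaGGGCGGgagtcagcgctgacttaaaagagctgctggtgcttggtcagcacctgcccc

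Each of these 3 windows holds 1 GC box, and that of Col4a5 also 1 CCAAT box. Of the 41 matrix genes with an entry in the promoter table, 28 (68.3%) hold a GC box in this window, against 32.7% of all 32851 promoters, 15 (36.6%) a CCAAT box against 33.9%, 5 (12.2%) a TATA box (TATAAA) against 12.4%, and 1 (2.44%) an AP-1 site (TGANTCA) against 6.75%. The motifs were searched on both strands and do not overlap one another in the windows shown. A matrix gene counts here if any of its entries holds the motif, while the share of all promoters counts single entries. The 2 shares are thus not like for like. Such matches describe the letters only.

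Col4a6 had a median signal of 556 (377 to 866) with the PD-1 KO label and 52.6 (22.1 to 159.9) with the WT label. The lowest PD-1 KO library lay more than 2 times above the highest WT one, and the change was 3.42 ± 0.15 log2 (adjusted p = 8.29e-17). Col4a5 had a signal between 454 and 970.1 under the PD-1 KO label (median 650.3) and between 91.7 and 287 under the WT label (median 177), also without overlap, and changed by 1.99 ± 0.11 log2 (adjusted p = 2.03e-15). The ratio of Col4a6 to Col4a5 was 0.716 to 0.975 in PD-1 KO-labelled libraries and 0.156 to 0.557 in WT-labelled libraries, so the pair did not rise in proportion. Col4a1 and Col4a2, the chains of nearly all basement membranes, changed less and overlapped. Col4a1 had a signal of 300.5 to 763 (median 409) in the PD-1 KO-labelled libraries and 116 to 431 (median 168) in the WT-labelled ones. Its change was 1.33 ± 0.13 log2. Col4a2 had a median signal of 170.1 (109.5 to 298) with the PD-1 KO label and 101 (60.2 to 187) with the WT label. It rose by 0.85 ± 0.14 log2. The genes overlap at their starts, and the library kit does not mark strand, so reads there cannot be assigned to either gene. The kidney and lung chains stood near the limit of detection. Col4a3 had a signal between 1 and 15.7 under the PD-1 KO label (median 4.27) and between 1 and 42.6 under the WT label (median 9.27), was at the floor in 1 library of each label, and fell by 0.95 ± 0.31 (adjusted p = 0.00977). Its decrease was largest at 0 h, where its signal was 1.90, 4.27 and 1 in PD-1 KO-labelled libraries against 9.17, 10.3 and 34.7 in WT-labelled ones. Col4a4 had a signal of 1.14 to 14.6 (median 7.62) in the PD-1 KO-labelled libraries and 1 to 16.2 (median 5.01) in the WT-labelled ones and a change of 0.38 ± 0.30 log2 that did not pass the test and was -0.73 after quantile normalization.

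The type VI chains, which form beaded filaments around cells, all rose, 4 of 4. Col6a5 had the largest change of all 60 genes and was also the least even within its label. It had a median signal of 110.1 (6.86 to 347) with the PD-1 KO label and 1.39 (1 to 6.15) with the WT label, and 6 of the 15 WT-labelled libraries lay at the floor. At 0 h its signal was 332, 14.2 and 6.86 in PD-1 KO-labelled libraries against 1, 1 and 1.65 in WT-labelled ones. A single library thus lay more than 20 times above the other 2 of its group, although all 3 stood above WT. At 8 h the values were 159, 216 and 124 in PD-1 KO-labelled libraries and 4.37, 6.15 and 2.51 in WT-labelled ones. In PD-1 KO these lay far closer together than at 0 h, while in WT they did not. Over the 5 conditions it rose by 5.15 ± 0.35 log2 (adjusted p = 4.31e-13), in single conditions by 3.96 at 0 h to 6.24 at 2 h with amyloid-beta. Col6a1 had a signal between 48.4 and 144 under the PD-1 KO label (median 96.2) and between 17.6 and 129 under the WT label (median 36.4) and rose by 1.16 ± 0.19 log2. Col6a2, its neighbour on chromosome 10, had a signal of 17.8 to 56.4 (median 36.8) in the PD-1 KO-labelled libraries and 3.71 to 45.1 (median 12.5) in the WT-labelled ones. Its change was 1.42 ± 0.25 log2. Col6a3 was scarce, with a median signal of 5.89 (1 to 20.1) with the PD-1 KO label and 1 (1 to 3.71) with the WT label, at the floor in 9 WT-labelled libraries and 1 labelled PD-1 KO, and rose by 1.43 ± 0.29 log2. At 8 h with amyloid-beta all 3 WT-labelled libraries were at the floor for Col6a3. Its PD-1 KO mean was at least 2.55-fold higher against 3 reads per library, with single PD-1 KO-labelled libraries from 3.21 to 14.9.

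Of the 10 fibrillar chains 7 rose, Col1a2 fell, and Col1a1 and Col2a1 did not pass the test. The type V and XI chains, minor partners that control fibril diameter, rose: Col5a3 by 2.28 ± 0.20 log2, Col5a1 by 1.29 ± 0.13 log2, Col11a1 by 0.71 ± 0.14 log2, Col5a2 by 0.66 ± 0.12 log2 and Col11a2 by 0.5 ± 0.16 log2, the last of which turned to -0.15 after quantile normalization. Col5a3 had a signal between 35.4 and 179.7 under the PD-1 KO label (median 104) and between 1.42 and 49.2 under the WT label (median 23.1) and was called in all conditions but 0 h. Col5a2 and Col11a1 held the highest signal of the class, with a signal of 183 to 428 (median 267) in the PD-1 KO-labelled libraries and 96.9 to 330.1 (median 169.7) in the WT-labelled ones for Col5a2. Col3a1, the chain of reticular fibers, had a median signal of 92.9 (15.6 to 277) with the PD-1 KO label and 18.6 (5.31 to 61.2) with the WT label. It rose by 2.24 ± 0.31 log2 (adjusted p = 4.51e-07). At 0 h it differed widely among PD-1 KO-labelled libraries, with 228, 15.6 and 50.3, against 17, 39 and 13.2 in WT-labelled ones. At 8 h it was even, with 113, 129.7 and 138 in PD-1 KO-labelled libraries against 18.6, 26.1 and 20.1 in WT-labelled ones. It was called at 2 h and 8 h with amyloid-beta and at 8 h without. Col5a1 had a median signal of 192 under the PD-1 KO label and 80.7 under the WT label, Col11a1 of 244 under the PD-1 KO label and 133 under the WT label and Col11a2 of 36.2 under the PD-1 KO label and 23.3 under the WT label. Col5a2 lies 24.6 kb from Col3a1 on chromosome 1. Col27a1 had a median of 41.6 under the PD-1 KO label and 17.6 under the WT label and rose by 1.22 ± 0.19 log2, called singly only at 2 h with amyloid-beta.

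Of the type I chains, which make the main collagen of bone, skin and scar, Col1a2 fell and Col1a1 was not called. Col1a1 had a signal between 12.8 and 112 under the PD-1 KO label (median 40.1) and between 5.88 and 49.5 under the WT label (median 27), with a change of 0.57 ± 0.28 log2 and an adjusted p of 0.076, and passed the test only at 8 h with amyloid-beta, by 1.65 ± 0.62 log2. Col1a2 had a signal of 11.4 to 118 (median 53.6) in the PD-1 KO-labelled libraries and 30.9 to 163 (median 96.4) in the WT-labelled ones and fell by 0.77 ± 0.24 (adjusted p = 0.00776), with calls at 0 h and 2 h. At 2 h the Col1a2 values were 30.6, 71.5 and 38.9 in PD-1 KO-labelled libraries against 114, 112 and 163 in WT-labelled ones, and did not overlap. The ratio of Col1a2 to Col1a1 was 0.889 to 2.73 (median 1.49) in PD-1 KO-labelled libraries and 1.63 to 12.6 (median 3.45) in WT-labelled libraries. Col2a1, the collagen of cartilage, had a median signal of 5.62 (1 to 15.3) with the PD-1 KO label and 4.17 (1 to 15) with the WT label, near the floor in both labels, and its uncalled change of 0.20 ± 0.32 log2 was -0.84 after quantile normalization.

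Of the 13 other collagens 10 rose and none fell on the average. Col26a1 and Col22a1 had the largest changes. Col26a1 had a signal between 6.86 and 52.4 under the PD-1 KO label (median 20.5) and between 1 and 5.46 under the WT label (median 1.42), with 7 WT-labelled libraries at the floor, and rose by 2.96 ± 0.26 log2. At 8 h with amyloid-beta all 3 WT libraries were at the floor for it, and its PD-1 KO mean was at least 8.29-fold higher. Col22a1, a collagen of tissue junctions, had a signal of 14.2 to 54.5 (median 33.1) in the PD-1 KO-labelled libraries and 1.06 to 17 (median 4.17) in the WT-labelled ones and rose by 2.70 ± 0.21 log2. Col18a1, the basement membrane collagen from which endostatin is cut, held the highest signal of the class, with a median signal of 845 (515 to 1115) with the PD-1 KO label and 458 (311 to 818) with the WT label, and rose by 0.80 ± 0.09 log2. Col8a2 rose by 2.13 ± 0.23 log2 and Col12a1, a collagen on the surface of fibrils, by 2.09 ± 0.17 log2, both in every condition but 0 h. Col8a2 had a signal between 32 and 159.5 under the PD-1 KO label (median 88) and between 3.09 and 55 under the WT label (median 19.2). Col12a1 had a signal of 127 to 355 (median 198) in the PD-1 KO-labelled libraries and 19.9 to 133 (median 43.1) in the WT-labelled ones. Col8a1, the partner chain of Col8a2, had a median signal of 133 (106 to 231) with the PD-1 KO label and 134 (74.8 to 322) with the WT label and a change of 0.07 ± 0.13 log2. It fell at 0 h only, where it had 133, 107 and 109 in PD-1 KO-labelled libraries against 231, 250.2 and 322 in WT-labelled ones. The transmembrane collagen Col23a1 was the most even within PD-1 KO of this class, with a signal between 38.1 and 72.7 under the PD-1 KO label (median 53.3) and between 13.2 and 36.2 under the WT label (median 27.8), and rose by 1.05 ± 0.11 log2 with no overlap. Smaller increases were those of Col16a1 (1.20 ± 0.15 log2), Col15a1 (0.97 ± 0.26 log2), Col9a3 (0.91 ± 0.16 log2) and the anchoring fibril collagen Col7a1 (0.77 ± 0.24 log2), which was -0.19 after quantile normalization. Their medians were 99.3 under the PD-1 KO label and 50.2 under the WT label for Col16a1, 26.1 under the PD-1 KO label and 17.3 under the WT label for Col15a1, 39.3 under the PD-1 KO label and 21.5 under the WT label for Col9a3 and 12.9 under the PD-1 KO label and 8.10 under the WT label for Col7a1, and the ranges of the labels overlapped. Col14a1 (0.23 ± 0.26 log2, and -0.72 after quantile normalization) and Col20a1 (0.44 ± 0.22 log2) were not called.

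**Figure D4:**
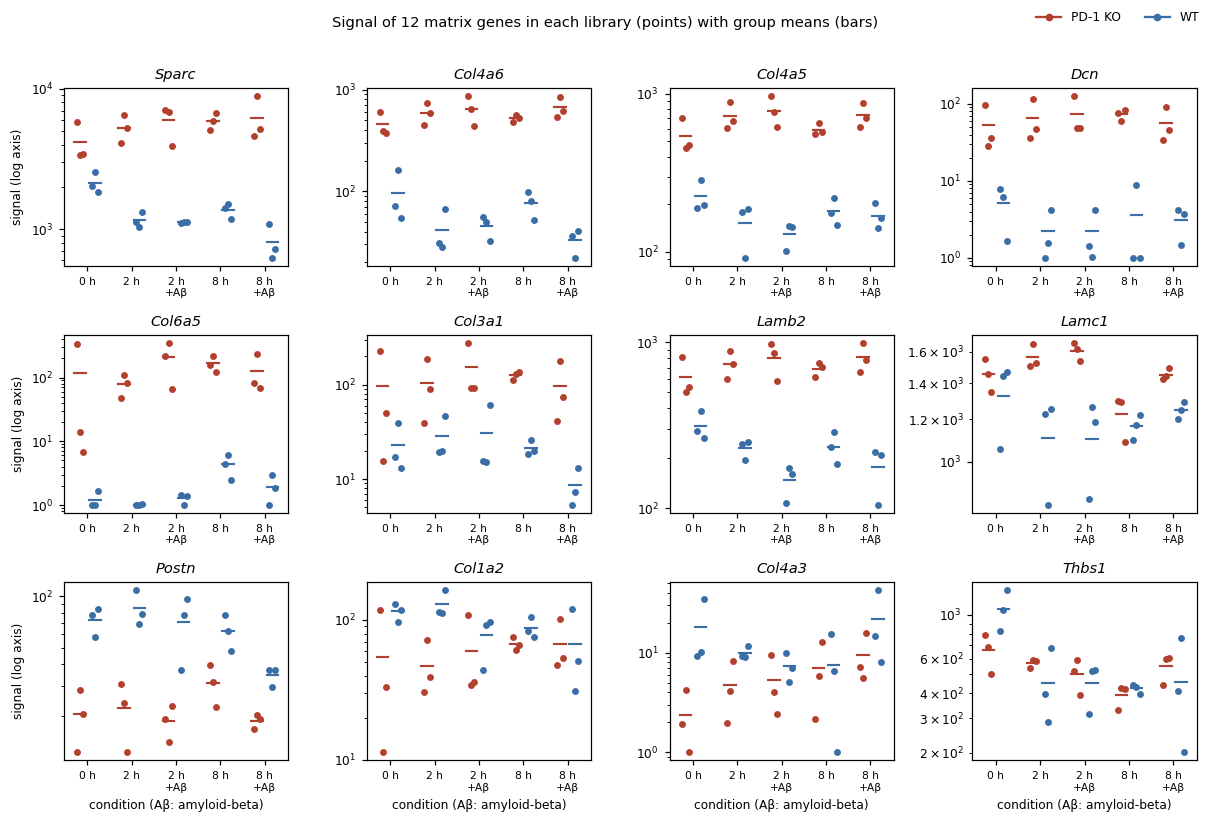
Signal of 12 matrix genes in each library (points, log axis) with group means (bars), by condition, with PD-1 KO (red) left of WT (blue). Sparc, Col4a6, Col4a5, Dcn, Col6a5 and Lamb2 do not overlap in any condition. Postn and Col1a2 are lower in PD-1 KO at 0 h and 2 h in most libraries. The ranges of Thbs1 overlap in every condition but 0 h, where PD-1 KO is lower.

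Of the 9 laminin chains 7 rose and none fell on the average, while Lama4 and Lamb1 were not called. Lamb2 had a signal of 498 to 989 (median 741) in the PD-1 KO-labelled libraries and 104 to 383 (median 216) in the WT-labelled ones without overlap and rose by 1.78 ± 0.11 log2 (adjusted p = 4.94e-14). Lamb1, the alternative beta chain, had a median signal of 37.3 (18.3 to 64.5) with the PD-1 KO label and 36.5 (17.5 to 191) with the WT label and a change of -0.27 ± 0.22 log2. The ratio of Lamb2 to Lamb1 was 14.7 to 29.4 in PD-1 KO-labelled libraries and 0.546 to 10.6 in WT-labelled libraries, which do not overlap. Lamc1, the gamma chain shared by most laminins, was the most even of the 60 genes within PD-1 KO, with a within-group SD of 0.09 on the log2 scale. It had a signal between 1086 and 1663 under the PD-1 KO label (median 1491) and between 829.9 and 1468 under the WT label (median 1221) and rose by only 0.31 ± 0.06 log2, called at 2 h with and without amyloid-beta.

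Among the alpha chains, Lama5 had a median signal of 316 (210.2 to 464) with the PD-1 KO label and 103 (42.7 to 249.5) with the WT label. Its change was 1.65 ± 0.14 log2. Lama2, the chain of muscle and of the glial limiting membrane, had a signal between 19.4 and 56.4 under the PD-1 KO label (median 41.2) and between 4.21 and 30.8 under the WT label (median 8.35). It rose by 1.75 ± 0.20 log2. Both were called in every condition but 0 h. Lama3, a chain of epithelial laminin, rose by 0.51 ± 0.08 log2, with a signal of 348 to 577 (median 487) in the PD-1 KO-labelled libraries and 218 to 425 (median 326) in the WT-labelled ones, and was called at 0 h, 2 h and 2 h with amyloid-beta. Lama4, the vascular chain, had a median signal of 46.5 (25.5 to 81) with the PD-1 KO label and 46.6 (20.6 to 85.1) with the WT label and a change of 0.08 ± 0.13 log2, or -0.48 after quantile normalization. At 8 h without amyloid-beta it fell, with 34.4, 25.5 and 43.2 in PD-1 KO-labelled libraries and 85.1, 52.7 and 50.1 in WT-labelled ones. Lama1 had a signal between 2.14 and 26.1 under the PD-1 KO label (median 12.3) and between 2.05 and 17.5 under the WT label (median 5.31) and rose by 0.80 ± 0.20 log2 on the average, or -0.19 after quantile normalization.

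Of the nidogens, which bridge laminin and type IV collagen, Nid2 rose and Nid1 was not called. Nid2 had a signal of 213 to 361 (median 292) in the PD-1 KO-labelled libraries and 93.3 to 202 (median 133) in the WT-labelled ones without overlap and rose by 1.04 ± 0.07 log2 (adjusted p = 4.26e-13), with a within-group SD of 0.14 in PD-1 KO. Nid1 had a median signal of 113 (66.2 to 193) with the PD-1 KO label and 133 (77.7 to 233) with the WT label and a change of -0.35 ± 0.16 log2 (adjusted p = 0.067). Of the exon bases of Nid2, 8.45% are shared with Rtraf. Perlecan (Hspg2), the large proteoglycan of the same membranes, had a signal between 318 and 707 under the PD-1 KO label (median 522) and between 155 and 660.3 under the WT label (median 268). Its change was 0.82 ± 0.12 log2.

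All 4 proteoglycans rose. Decorin (Dcn), a small leucine-rich proteoglycan that coats collagen fibrils and binds TGF-beta, had the second largest change of the 60 genes. It had a signal of 28.4 to 127 (median 48.3) in the PD-1 KO-labelled libraries and 1 to 8.84 (median 1.65) in the WT-labelled ones, with 3 WT-labelled libraries at the floor. At 8 h the values were 75.3, 60.9 and 83.8 in PD-1 KO-labelled libraries against 1, 8.84 and 1 in WT-labelled ones. In every condition the labels did not overlap. Lumican (Lum), 47.0 kb away on chromosome 10 and on the same strand, is of the same family. It had a median signal of 9.68 (1.87 to 27.7) with the PD-1 KO label and 1 (1 to 3.46) with the WT label, with 11 of the 15 WT-labelled libraries at the floor, and rose by 2.20 ± 0.29 log2 (adjusted p = 2.03e-07). At 8 h with amyloid-beta all 3 WT-labelled libraries were at the floor, and the PD-1 KO mean was at least 2.40-fold higher against 3 reads per library. The bound is for the mean only. The PD-1 KO-labelled libraries ran from 1.87 to 15.2, and the lowest lay below the mean value of 3 reads in WT, 3.15. Biglycan (Bgn), the closest relative of decorin, had a signal between 19.8 and 89 under the PD-1 KO label (median 50.1) and between 7.52 and 77.9 under the WT label (median 29.6). It rose by 0.74 ± 0.24 log2, called at 8 h with and without amyloid-beta.

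Among the glycoproteins, Sparc had by far the most reads. It had a signal of 3402 to 8909 (median 5229) in the PD-1 KO-labelled libraries and 623 to 2551 (median 1126) in the WT-labelled ones, and the lowest PD-1 KO-labelled library lay above the highest WT-labelled one. It rose by 2.10 ± 0.11 log2 (adjusted p = 1.16e-15), with 0.94 ± 0.24 log2 at 0 h and 2.92 ± 0.24 log2 at 8 h with amyloid-beta at the ends of the range. At 8 h with amyloid-beta its signal was 4636, 8909 and 5177 in PD-1 KO-labelled libraries and 1094, 623 and 723 in WT-labelled ones. Tenascin-C, a glycoprotein of developing and injured tissue, had a median signal of 1213 (709 to 1847) with the PD-1 KO label and 334 (157 to 1007) with the WT label and rose by 1.71 ± 0.13 log2 (adjusted p = 6.29e-12), in every condition but 0 h. Fibronectin had a signal between 1588 and 3026 under the PD-1 KO label (median 2253) and between 477 and 2364 under the WT label (median 996). Its change was 1.12 ± 0.14 log2, again in all but 0 h. Fibrillin-1 (Fbn1), the core of elastic microfibrils, had a signal of 61.3 to 146 (median 90.5) in the PD-1 KO-labelled libraries and 22.1 to 98.4 (median 47.6) in the WT-labelled ones. It rose by 1.11 ± 0.14 log2, and 20.1% of its exon bases are shared with Gm9913. Periostin (Postn), a matricellular partner of type I collagen, went the other way. It had a median signal of 20.6 (12.3 to 39.8) with the PD-1 KO label and 68.7 (29.4 to 109) with the WT label and fell by 1.48 ± 0.15 (adjusted p = 1.90e-09), the most of the 60 genes. At 0 h it had 12.4, 28.4 and 20.6 in PD-1 KO-labelled libraries against 77.3, 57.4 and 84.3 in WT-labelled ones, and it fell in all conditions except 8 h with amyloid-beta. There the values, 16.8, 20.1 and 19.1 in PD-1 KO-labelled libraries against 37.1, 29.4 and 37.1 in WT-labelled libraries, did not overlap either, and the change was -0.85 ± 0.34 log2 (adjusted p = 0.056).

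Of the 3 thrombospondins, Thbs2 and Thbs3 rose and Thbs1 was not called. Thbs1, which can release TGF-beta from its latent form, had a signal between 331 and 792 under the PD-1 KO label (median 539.6) and between 202 and 1334 under the WT label (median 443) and a change of 0.04 ± 0.14 log2 (adjusted p = 0.803). Thbs2, which like Thbs1 promotes synapse formation when secreted by astrocytes, had a signal of 109.7 to 349.6 (median 192) in the PD-1 KO-labelled libraries and 27.6 to 145 (median 90.1) in the WT-labelled ones and rose by 1.35 ± 0.14 log2. Thbs3 had a median signal of 63.9 (34.3 to 94.7) with the PD-1 KO label and 15 (9.74 to 30.8) with the WT label without overlap and rose by 2.02 ± 0.13 log2 (adjusted p = 5.15e-14), with 6.59% of its exon bases shared with Mtx1. Of the fibulins, which link elastic fibers and basement membranes, Fbln7 had a signal between 14.2 and 88.3 under the PD-1 KO label (median 47.1) and between 1 and 12 under the WT label (median 4.41). Its change was 3.0 ± 0.26 log2. Fbln1 had a signal of 5.69 to 23.8 (median 16.1) in the PD-1 KO-labelled libraries and 2.18 to 9.17 (median 5.01) in the WT-labelled ones. It rose by 1.44 ± 0.20 log2. Fbln2 had a median of 19.6 under the PD-1 KO label and 17.3 under the WT label, a change of -0.29 ± 0.25 log2 and no call. Fbln5, an elastic fiber protein, had a median signal of 40.9 (18.1 to 61.5) with the PD-1 KO label and 46.4 (24.1 to 90.9) with the WT label and fell by 0.47 ± 0.16 (adjusted p = 0.0147), with the call at 0 h alone. There it had 21.9, 24.2 and 18.3 in PD-1 KO-labelled libraries against 68.1, 63.6 and 90.9 in WT-labelled ones.

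Matrix genes varied more between libraries of 1 group than other genes did. Their median within-group SD was 0.50 on the log2 scale, against 0.20 over all tested genes. The 2 sets were not matched for signal level. Genes with low signal such as Col4a3 (0.91), Col2a1 (0.90) and Lum (0.80) lay high, whereas Lamc1 (0.18), Nid2 (0.20) and Lama3 (0.24) lay near the value of all genes. In PD-1 KO-labelled libraries the variation was shared: within 5 groups of 3, a single library held the highest value of most matrix genes in 4. The first library at 0 h was the highest of its 3 for 53 of the 60 (39.5% of all genes), the second at 2 h for 51 (38.8%), the first at 2 h with amyloid-beta for 43 (29%) and the second at 8 h with amyloid-beta for 48 (42.2%). At 8 h without amyloid-beta the 3 libraries were highest for 8, 24 and 28 (27.2%, 36.0% and 36.8% of all genes). Of the WT-labelled libraries none was highest for more than 31 of the 60 (34.9% of all genes for that library). Some were highest for few matrix genes, so variation was shared there too. The second at 2 h was highest for 4 (38% of all genes) and the first at 2 h with amyloid-beta for 7 (42.7%). The third at 8 h was highest for 10 (37.6%) and the first at 0 h for 11 (38.25%). Over all 30 libraries, the first at 2 h with amyloid-beta and labelled PD-1 KO was the highest for 23 matrix genes (3.99% of all genes), among them Col1a1, Col3a1, Col4a1, Col4a5, Col4a6, Dcn and Lum.

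These 4 libraries had the highest summed signal of the 10 astrocyte markers of their groups. In order of replicate it was 22720.4, 11515 and 12038 at 0 h, 14386, 23554 and 18190.1 at 2 h, 28029.5, 27670.3 and 14644 at 2 h with amyloid-beta and 15834, 28826 and 17632 at 8 h with amyloid-beta. The sums of the 6 fibroblast and meningeal markers were 657, 493 and 587 at 0 h and 536, 383 and 341 at 2 h with amyloid-beta, highest in the same first library of each. At 2 h they were 539, 476 and 508, lowest in the second library, the one highest in most matrix genes, and at 8 h with amyloid-beta 205, 392 and 382. Ependymal and choroid plexus markers summed to 4329, 1727 and 1578 at 0 h, 2499, 3403 and 3170.2 at 2 h, 4847, 6925 and 2788 at 2 h with amyloid-beta and 2838, 6367 and 4382 at 8 h with amyloid-beta. They were thus highest in the same library as the matrix genes in each of these groups but 2 h with amyloid-beta. Mural cell markers summed highest in the library highest in most matrix genes at 0 h (2283), 2 h (3078) and 8 h with amyloid-beta (2688). At 2 h with amyloid-beta they did not. At 8 h without amyloid-beta the third library was highest for the most matrix genes (28). There the astrocyte sums were 16522.5, 20220.5 and 17431.7, highest in the second library. The ependymal sums were 3736, 4336 and 4837 and the mural sums 1550, 1811 and 2705, both highest in the third library. The fibroblast sums were 512, 432 and 451, highest in the first. What these markers contribute to the matrix genes was not tested. The least even genes in PD-1 KO were Col6a5 (within-group SD 1.5), Col3a1 (1.17), Col2a1 (1.07), Lum (1.06), Col6a3 (1.04), Col1a1 (1.0) and Col15a1 (0.97), and the most even were Lamc1 (0.09), Nid2 (0.14), Col23a1 (0.21), Lama3 (0.24) and Thbs1 (0.25). In WT-labelled libraries, a library at 8 h with amyloid-beta, the second, held the highest value of all 30 for 5 of the 60 genes, a share near its 7.27% of all genes, among them Lamb1 (191), Fbln2 (61.8), Col4a3 (42.6) and Col4a4 (16.2).

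Amyloid-beta medium changed no matrix gene past the threshold in either label at either time. In PD-1 KO at 2 h 0 of 60 were called (0% of all genes) and 1 had an unadjusted p under 0.05 (4.48% of all genes), and in WT at 2 h 0 (0%) and 5 (4.96%). In PD-1 KO at 8 h the counts were 0 (0.0583%) and 2 (7.55%). In WT at 8 h they were 0 (2.18%) and 16 (13.9%), or 26.7% of the 60 genes. In that last comparison 41 of the 60 changes were negative, the median was -0.38 against -0.00422 over all genes, and the smallest adjusted p was 0.0588. Those nearest the threshold were Col2a1 (-2.5 ± 0.71 log2), Col4a6 (-1.21 ± 0.34 log2), Lama4 (-1.01 ± 0.29 log2), Col22a1 (-1.59 ± 0.48 log2) and Sparc (-0.79 ± 0.24 log2). Sparc had 1094, 623 and 723 with amyloid-beta and 1425, 1519 and 1181 without, which do not overlap, and Col4a6 had 36.1, 22.1 and 40.2 with and 98.2, 80.7 and 52.6 without. The uncalled increases of Lamb1 and Col4a3 were led by the second library with amyloid-beta, as for Lamb1 with 32.9, 191 and 35.9 with and 41.5, 32.7 and 17.5 without. The count was 3 without the third WT library at 8 h and 1 without the first WT library at 8 h with amyloid-beta.

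In the same WT comparison the astrocyte markers summed to 1409, 1298 and 1418 with amyloid-beta, against 2976, 3349 and 1835 without. The fibroblast and meningeal markers summed to 420, 160 and 186 with, against 842, 908 and 318 without. The microglial markers summed to 82943, 80570 and 80459 with, against 98885, 92258 and 87244 without. The part of these cell types in the matrix changes was not tested. By single genes, 4 of the 10 astrocyte markers and 4 of the 10 oligodendrocyte lineage markers fell and none rose. Of all tested genes 2.18% were called in either direction. The decreases were Gja1 (-1.38 ± 0.35 log2), Gfap (-1.35 ± 0.34 log2), Aqp4 (-1.27 ± 0.30 log2) and Aldh1l1 (-0.90 ± 0.23 log2) among the astrocyte markers and Sox10 (-1.41 ± 0.20 log2), Olig1 (-1.15 ± 0.22 log2), Cspg5 (-1.10 ± 0.20 log2) and Olig2 (-1.04 ± 0.21 log2) among the oligodendrocyte lineage markers. In PD-1 KO at 8 h, the matrix gene nearest the threshold was Lama1, with 15.2, 17.7 and 15.4 with amyloid-beta and 4.30, 7.86 and 2.14 without, a change of 1.69 ± 0.44 log2 (adjusted p = 0.134). Col18a1 had 0.54 ± 0.19 log2 at 8 h and 0.44 ± 0.19 log2 at 2 h. The difference of the amyloid-beta effect between PD-1 KO and WT passed for no matrix gene, at 2 h (0 of 60, with 0.0510% of all genes) or at 8 h (0 of 60, with 0% of all genes). With an unadjusted p under 0.05 there were 6 at 2 h (4.83% of all genes) and 9 at 8 h (5.90%), among the latter Lama1 (2.37 ± 0.62 log2) and Col4a6 (1.54 ± 0.49 log2). The smallest adjusted p of these was 0.292.

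Without amyloid-beta, some matrix genes were lower at later times in WT-labelled libraries. At 2 h against 0 h, 11 of the 60 fell in WT and 0 rose (2.16% and 2.59% of all genes): Tnc, Lama2, Col12a1, Thbs1, Col8a1, Lama5, Col4a1, Thbs3, Sparc, Col18a1 and Nid2. Tnc changed most, with 359.8, 159 and 251 at 2 h and 552, 1007 and 795 at 0 h, a fall of 1.64 ± 0.30 (adjusted p = 0.00113). Thbs1 had 396, 285 and 681 at 2 h and 831, 1052 and 1334 at 0 h and changed by -1.30 ± 0.31 log2. Sparc had 1116, 1036 and 1330.2 at 2 h and 2032, 2551 and 1836 at 0 h and changed by -0.88 ± 0.24 log2. In none of these 3 did the times overlap. Lama2 had 11.1, 4.96 and 4.21 at 2 h and 14.4, 30.8 and 18.2 at 0 h, Col12a1 65.8, 24.6 and 39 and 95.7, 133 and 81, Col8a1 95.5, 85.2 and 186 and 231, 250.2 and 322, and Lama5 135, 53.9 and 75.8 and 111, 239.9 and 249.5, changes of -1.55, -1.32, -1.20 and -1.19 log2 in that order. Of these 4 only Lama5 overlapped between the times. The count of 11 rests on single libraries: it was 1 without the second and 2 without the third WT library at 0 h, 2 without the second WT library at 2 h, and 0 in a fit of only these groups. In PD-1 KO, 0 of 60 passed at 2 h (0.634% of all genes) and 0 had an unadjusted p under 0.05 (8.71% of all genes).

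At 8 h against 0 h, 5 fell and 1 rose in WT (3.05% and 3.0% of all genes). Thbs1 changed by -1.31 ± 0.31 log2, Col5a2 by -1.22 ± 0.27 log2, Col11a1 by -1.17 ± 0.31 log2, Thbs2 by -1.13 ± 0.31 log2 and Tnc by -1.02 ± 0.30 log2, and Lama1 by 1.60 ± 0.44 log2. Col5a2 had 136, 129 and 125 at 8 h and 274, 330.1 and 309 at 0 h, clearly apart. Col11a1 had 133, 121 and 72.7 at 8 h and 153, 289 and 304 at 0 h, and Thbs2 75.3, 61.5 and 47.6 and 145, 115 and 144. The times did not overlap for either. The count was 11 without the first WT library at 0 h, 3 without the second and 1 without the third, and 3 without the second or the third WT library at 8 h. In PD-1 KO 0 of 60 passed (3.29% of all genes), and 11 had an unadjusted p under 0.05 (15.1%), with Col6a5 at 2.26 ± 0.79 log2 and Thbs2 at -0.89 ± 0.31 log2. Of the genes that fell in WT, Thbs1, Col11a1, Thbs2 and Tnc were also lower at 8 h in PD-1 KO without overlap, though not called. Thbs1 changed there by -0.73 ± 0.31 log2, Col11a1 by -0.74 ± 0.31 log2 and Tnc by -0.59 ± 0.30 log2. Col5a2 overlapped, with 0.15 ± 0.27 log2. The PD-1 KO count was 3 without the first PD-1 KO library at 0 h and 1 without the third there or the third at 8 h.

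The time changes of the labels were tested against each other. For 2 h against 0 h, the difference passed for 1 of the 60 (0.736% of all genes), and 23 had an unadjusted p under 0.05 (13.2% of all genes). The gene was Tnc, with 1404, 1847 and 1527 at 2 h and 1499, 1213 and 927 at 0 h in PD-1 KO-labelled libraries. In WT-labelled libraries it had 359.8, 159 and 251 at 2 h and 552, 1007 and 795 at 0 h, so the difference, PD-1 KO minus WT, was 2.05 ± 0.42 log2 (adjusted p = 0.0181). It lost the call without the second WT library at 0 h or 2 h, the third PD-1 KO library at 0 h or the second at 2 h, and the count was 8 without the first PD-1 KO library at 0 h. It was 3 without the first WT library at either time and 2 without the third WT library at 2 h. For 8 h against 0 h the difference passed for 1 gene (0.270% of all genes), Lama1, and 15 had an unadjusted p under 0.05 (10.4%). Lama1 had 4.30, 7.86 and 2.14 at 8 h and 13.3, 8.53 and 11.4 at 0 h in PD-1 KO-labelled libraries. In WT-labelled libraries it had 6.55, 11.9 and 17.5 at 8 h and 3.93, 2.05 and 3.31 at 0 h, so the difference, PD-1 KO minus WT, was -2.78 ± 0.62 log2 (adjusted p = 0.0457). The call was lost when any 1 of the 12 libraries was left out, except the first of WT and the second of PD-1 KO at 8 h.

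**Figure D5:**
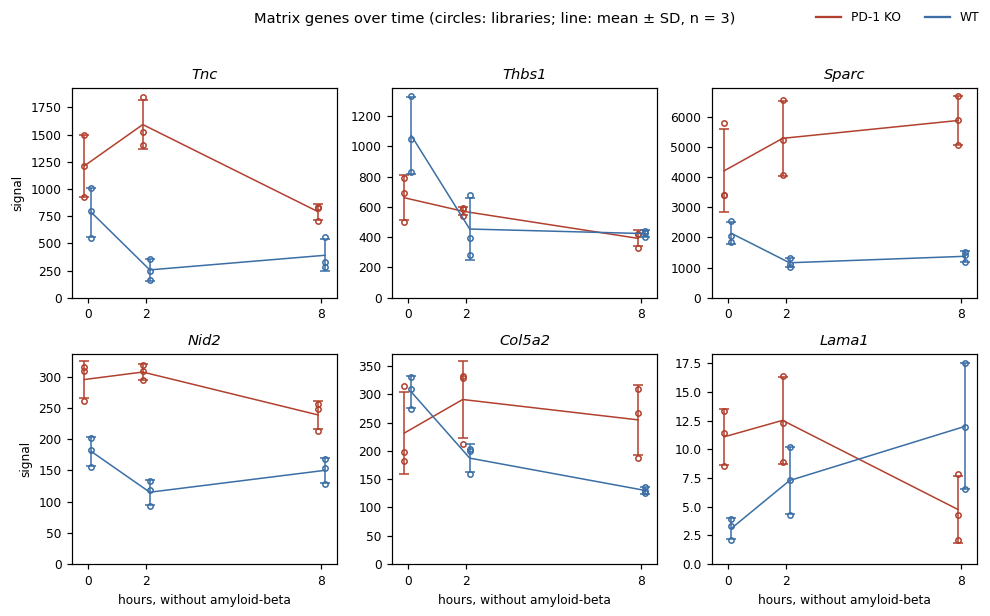
Signal of 6 matrix genes over 0, 2 and 8 h without amyloid-beta (circles, libraries; line and bars, mean ± SD, n = 3), with PD-1 KO in red and WT in blue. Tnc and Sparc are lower at 2 h than at 0 h in WT, where the PD-1 KO lines gave no call. Thbs1 ends low in both labels, Col5a2 ends low in WT, and Lama1 ends higher in WT and lower in PD-1 KO.

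Genes of the machinery that builds collagen changed in both directions. Of 32 tested genes of collagen modification, secretion and cross-linking, 15 rose and 6 fell in PD-1 KO-labelled libraries against WT, with a median of 0.10. Of all tested genes 30.3% rose and 29.1% fell. P4ha3, a subunit of prolyl 4-hydroxylase, rose by 3.23 ± 0.19 log2, Serpinh1, the collagen chaperone HSP47, by 1.84 ± 0.11 log2, Plod2, a lysyl hydroxylase, by 1.64 ± 0.11 log2 and Fkbp10, an endoplasmic reticulum prolyl isomerase, by 1.51 ± 0.14 log2. The largest decreases were those of the procollagen proteinase enhancer Pcolce2 (-1.34 ± 0.17 log2), the collagen galactosyltransferase Colgalt1 (-0.54 ± 0.04 log2), Crtap (-0.35 ± 0.05 log2) and P4ha2 (-0.20 ± 0.07 log2). The summed signal of the list overlapped, with 17169.8 to 20252 in PD-1 KO-labelled libraries and 16896 to 21589.8 in WT-labelled libraries.

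Of 29 tested matrix receptors 17 rose and 7 fell (median 0.24). The increases with the largest change were those of the integrin beta-4 chain Itgb4 (3.16 ± 0.32 log2), part of a laminin receptor, the collagen receptor Ddr1 (2.87 ± 0.12 log2), syndecan-2, Sdc2 (2.08 ± 0.12 log2), and the collagen-binding integrin chain Itga1 (1.69 ± 0.22 log2). The decreases were led by the scavenger and thrombospondin receptor Cd36 (-0.60 ± 0.06 log2), the collagen-binding inhibitory receptor Lair1 (-0.60 ± 0.05 log2), Itga4 (-0.40 ± 0.11 log2) and Itgb5 (-0.37 ± 0.04 log2). Of 19 tested genes of TGF-beta signaling, the main inducer of matrix genes in fibroblasts, 12 rose and 5 fell (median 0.72). The co-receptor Tgfbr3 (1.89 ± 0.17 log2), Tgfb3 (1.79 ± 0.10 log2) and the targets Cyr61 (1.44 ± 0.13 log2) and Ctgf (1.17 ± 0.15 log2) rose, while the signaling receptor Tgfbr2 (-0.35 ± 0.05 log2), Tgfb1 (-0.23 ± 0.05 log2) and Smad2 (-0.13 ± 0.04 log2) fell. Over all tested genes 30.3% rose and 29.1% fell in this comparison.

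Marker lists of other cell types were counted in the same comparison, where 30.3% of all tested genes rose and 29.1% fell. All 10 astrocyte markers rose (median 2.68), from Slc1a2 (1.77 ± 0.15 log2) to Gfap (4.03 ± 0.15 log2), as did 6 of the 8 tested ependymal and choroid plexus markers (median 4.31), such as Dnah6 (5.52 ± 0.30 log2), and 7 of 10 oligodendrocyte lineage markers, while 2 of these fell. All 4 tested mural cell markers rose, Tagln by 1.82 ± 0.12 log2 and Pdgfrb by 1.36 ± 0.19 log2, while Rgs5, Abcc9 and Kcnj8 were not analysed here. Of the 6 tested fibroblast and meningeal markers 3 rose, Islr by 2.85 ± 0.13 log2, Aldh1a2 by 1.81 ± 0.31 log2 and Foxc1 by 1.70 ± 0.24 log2, and 2 fell, Igf2 (-2.17 ± 0.22 log2) and Pdgfra (-0.67 ± 0.16 log2). Of the 4 tested endothelial markers 2 rose and 1, Flt1 (-0.83 ± 0.09 log2), fell. Cldn5 and Cdh5 were not analysed here. The 10 microglial markers split into 4 higher and 4 lower. Whether the matrix genes come from microglia or from any of these other cells was not tested, since each library pools all the cells of a culture.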

How the data were processed

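Gene-level RNA-seq values of 30 libraries were analysed. The deposited signal is, per the file headers and the values, a gene count divided by a factor per library and floored at 1. Partek 6.6, HISAT 0.1.5, DESeq2, R 3.0.2 and the mm10 build are listed in the submitters' processing notes, and the counting program and annotation are not given in the sources used here. Reads per library were recovered from the step between values (whole within 0.05 of a read), and the library kit does not mark strand. All 30 columns were used.

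Changes were tested with limma 3.58.1 (R 4.3.3) on log2(signal + 1), with an intensity trend, 1 mean per group of 3 libraries and 20 residual degrees of freedom. Genes with a signal of 10 in at least 3 libraries were kept (13722), with Benjamini-Hochberg adjustment over all of them in each of 18 comparisons and a threshold of 0.05. The fit was tested on simulated data. No 2 libraries agreed within sampling noise: over 30 pairs within groups the lowest mean chi-square per gene was 2.14. Bounds against a group at the floor take 3 reads per library and cover counting error only.

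The matrix genes and the lists (collagen biosynthesis, matrix receptors, TGF-beta, and markers of microglia, fibroblasts and meninges, mural cells, endothelium, astrocytes, ependyma and choroid plexus, and oligodendrocyte lineage) were chosen with earlier results of these data known. All 60 genes are counted by role, and the values of 1 of them and of 1 gene of another list are not reported here. Values are given for the 12 highest, for those with the largest changes in each comparison and for a fixed set of well-known chains, and up to 4 increases and 4 decreases of each other list are named. Alternatives were pseudocounts of 0 and 10, a filter at 50 and none, TMM factors, quantile normalization, limma without trend, only the groups compared, and leaving out each library. Voom on recovered reads, and leaving out together the PD-1 KO-labelled libraries highest in interstitial collagens at 0 h and at 2 h with amyloid-beta, were chosen after seeing the data. Exon lengths and positions come from the GRCm38 annotation and promoters from RefSeq (GRCm38.p6). Figures were drawn with matplotlib 3.10.9 (Python 3.11.15).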

Additional observations from a re-analysis of the deposited data

Results flagged for a closer look

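The change of Tnc between 0 h and 2 h differed between the labels, by 2.05 ± 0.42 on the log2 scale (PD-1 KO minus WT; limma, adjusted p = 0.018), the difference itself being tested. At 2 h against 0 h its change was 0.41 ± 0.30 in PD-1 KO and -1.64 ± 0.30 in WT, and WT values did not overlap between the times.

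For Lama1 the change between 0 h and 8 h differed by -2.78 ± 0.62 (PD-1 KO minus WT; limma, adjusted p = 0.0457), with -1.18 ± 0.44 in PD-1 KO (adjusted p = 0.17) and 1.60 ± 0.44 in WT. In both labels the times did not overlap, and the 8 h libraries belong to another run of library numbers than the 0 h ones.

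Groups of 3 libraries were not searched for outlying samples.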

How the results depend on the processing

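In the mean of the 5 conditions, 41 of the 49 called changes were called under every alternative in which the gene was tested. By the same count it was 8 of 19 at 0 h, 24 of 32 at 2 h and 31 of 42 at 2 h with amyloid-beta. At 8 h it was 19 of 36, and at 8 h with amyloid-beta 29 of 40. Over time in WT it was 0 of 11 at 2 h and 1 of 6 at 8 h. A gene removed by a stricter filter does not count as lost here. The fewest matrix genes called in the mean under any alternative was 38. Counts below are matrix genes called, against the count as reported. Quantile normalization turned the mean change of Col11a2 to -0.15, Col14a1 to -0.72, Col2a1 to -0.84, Col4a4 to -0.73, Col7a1 to -0.19, Lama1 to -0.19 and Lama4 to -0.48, and gave 1 for amyloid-beta in PD-1 KO at 8 h (0 reported) and 2 for 8 h against 0 h in PD-1 KO (0). Voom gave 11 for PD-1 KO against WT at 0 h (19), 1 for amyloid-beta in PD-1 KO at 8 h (0), 3 for 8 h against 0 h in WT (6) and 0 for the difference of the 8 h change (1). Amyloid-beta in WT at 8 h (0) gave 2 with a pseudocount of 0 and 1 with only the groups compared. The 2 h change in WT (11) gave 0 with only the groups compared and 6 without the trend, and its difference between labels (1) gave 0 without the trend. The difference of the 8 h change (1) gave 0 with a pseudocount of 10, a filter at 50 or only the groups compared. With both first PD-1 KO-labelled libraries at 0 h and at 2 h with amyloid-beta left out, amyloid-beta in WT at 8 h gave 1, the 2 h change in PD-1 KO 1, the 8 h change in PD-1 KO 5, and the differences 7 at 2 h and 0 at 8 h. The causes were not tested. Leaving out 1 library at a time gave 49 to 50 for the mean, 14 to 21 at 0 h, 0 to 3 for amyloid-beta in WT at 8 h, 1 to 15 for the 2 h change and 1 to 11 for the 8 h change in WT, 0 to 1 and 0 to 3 in PD-1 KO, and 0 to 8 and 0 to 1 for their differences. No paired analysis was possible because the labels give each library a number of its own and no replicate number that groups share. Libraries with 4227019 reads at the least limit what can be seen of genes near the floor.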

Other observations

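The ratio of signal between 2 chains of a collagen that assemble together differed from library to library. The ratio of Col4a1 to Col4a2 signal was 1.80 to 3.31 (median 2.57) in PD-1 KO-labelled libraries and 1.27 to 2.31 (median 1.85) in WT-labelled ones, which overlap. That of Col6a1 to Col6a2 was 1.55 to 3.83 (median 2.47) under the PD-1 KO label and 1.48 to 6.83 (median 3.11) under the WT label. These ratios are of signal, not per length, and were not tested. Their ranges include counting error, as Col6a2 was as low as 3.71 in WT-labelled libraries.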
